A study of Mus musculus with 19 samples.

Results

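The genes described here encode the SR proteins, the heterogeneous nuclear ribonucleoproteins (hnRNPs) and the SR repetitive matrix proteins. They were taken by symbol, as those of the count table that begin with Srsf or Srrm and a digit, or with Hnrnp. The rule found 36 of the 14443 genes with counts, of which 11 were Srsf genes (Srsf1 to Srsf7 and Srsf9 to Srsf12). A further 20 were Hnrnp genes and 5 were Srrm genes (Srrm1 to Srrm4, and Srrm4os). Srrm4os is an RNA that overlaps the Srrm4 gene and is transcribed from the opposite strand. The families themselves were picked with earlier results of these data known. All 36 were tested, since the filter on low counts left out no gene.

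The study measured RNA from dissected mouse locus coeruleus, the small noradrenergic nucleus of the pons that promotes wakefulness. The 19 libraries fell into 4 groups: CnB1KO_SD6 (n = 5), CnB1KO_S6 (n = 5), WT_SD6 (n = 5) and WT_S6 (n = 4). CnB1KO are the ABC-CnB1KO mice, in which the regulatory subunit of calcineurin (CnB1, encoded by Ppp3r1) was to be removed, and WT are the ABC-Ctrl mice. SD6 mice were kept awake for 6 h and S6 mice had slept normally. The labels name an AAV-hSyn-Cre injection 4 weeks before collection without restricting it to a genotype, so WT mice too may carry the virus. The synapsin promoter (hSyn) drives Cre in neurons, while the tissue cut from 200 μm brain sections holds every cell type of the nucleus and its surroundings. The sources used here name no age, sex or strain. The labels call the libraries biological replicates without saying whether each is 1 animal, so p-values measure the spread between these libraries.

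SR proteins bind exons through an RNA recognition motif and recruit the spliceosome through a domain rich in arginine and serine, whose phosphorylation by SRPK and CLK kinases governs where they act. The hnRNPs coat nascent transcripts, often compete with SR proteins over splice sites, and also take part in RNA export, stability and local translation. Srrm1 and Srrm2 are large components of nuclear speckles, and Srrm3 and Srrm4 promote the inclusion of neuronal microexons. Many of these genes hold their own protein level steady through exons that send the transcript to decay. Counts per gene measure the amount of each transcript and say nothing of its splicing or of the protein's phosphorylation.

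Depth and tissue bear on what follows. Libraries held 5110285 to 6966490 counts in CnB1KO_SD6, 3887298 to 7128244 in CnB1KO_S6, 5606129 to 7903253 in WT_SD6 and 6260061 to 7002015 in WT_S6, and the shallowest library was CnB1KO_S6 library 13. Ppp3r1 averaged 133 ± 6.73 CPM (counts scaled to the library total by TMM) in CnB1KO_SD6, 129 ± 13.2 in CnB1KO_S6, 152 ± 10.9 in WT_SD6 and 161 ± 4.08 in WT_S6 (SD). It was 1.2-fold lower in CnB1KO over both treatments (edgeR, adjusted p = 0.00758), although CnB1KO_SD6 libraries 16 and 20, at 141 and 137 CPM, and CnB1KO_S6 library 13, at 152 CPM, lay within the WT_SD6 values. With the mean level of oligodendrocyte markers as a covariate its adjusted p was 0.0575. The noradrenergic markers Th, Dbh and Slc6a2 were present in every library. The 7 markers of cerebellar granule cells, the main neurons of the cerebellum that lies over the pons, were all measured and summed to 130 to 1350 CPM in CnB1KO_SD6, 181 to 1190 in CnB1KO_S6, 177 to 1980 in WT_SD6 and 391 to 1600 in WT_S6.

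All 36 genes were expressed, most of them well above the typical gene. On the per-length scale of FPKM (fragments scaled to transcript length and library total, by the authors), the median of the genes' mean levels was 40.8 against 14.2 for all 14410 symbols with counts and a single FPKM line, and 34 of the 36 lay above 14.2. Hnrnpa2b1, which encodes a reader of RNA sorting signals, was the most abundant at 127 ± 9.66 FPKM (SD over 19 libraries) and exceeded the next gene in 19 of 19 libraries. The speckle scaffold Srrm2 followed at 94.4 ± 7.98 FPKM, then Hnrnpu, a nuclear matrix protein, at 88.7 ± 7.79 FPKM. Hnrnpk, which binds C-rich RNA, and Hnrnpl, which binds CA repeats, were both at 83.7 FPKM, with SDs of 5.73 and 4.12, and Hnrnpk was above Hnrnpl in only 9 of 19 libraries.

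Among the SR genes the level was highest for Srsf11 at 76.3 ± 6.06 FPKM, then Srsf5 at 69.0 ± 5.82 and Srsf2 at 58.8 ± 3.45. The founding member Srsf1 had 41.0 ± 3.19 FPKM and could not be ordered against Srsf7 at 40.5 ± 2.57, which it exceeded in 9 of 19 libraries. Srsf12 was the lowest SR gene at 15.3 ± 2.30 FPKM. Of the Srrm genes, Srrm1 had 57.5 ± 4.42 FPKM and the neuronal Srrm3 34.4 ± 3.57, while Srrm4 had 12.2 ± 3.29 and ranged from 8.98 to 21.3. Srrm4os was the lowest of the 36 at 2.88 ± 1.70 FPKM, with a range of 1.06 to 8.56, and was below Srrm4 in 19 of 19 libraries. Apart from Hnrnpa2b1, Hnrnpl and Srrm4, every gene in this order was exceeded by its next lower neighbour in at least 1 library. For these genes the libraries above the neighbour ran from 7 of 19, as for Srsf10 over Srrm3, to 18 of 19, as for Hnrnph3 over Hnrnpd. The order is thus firmer for some neighbours than for others.

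**Figure D1:**
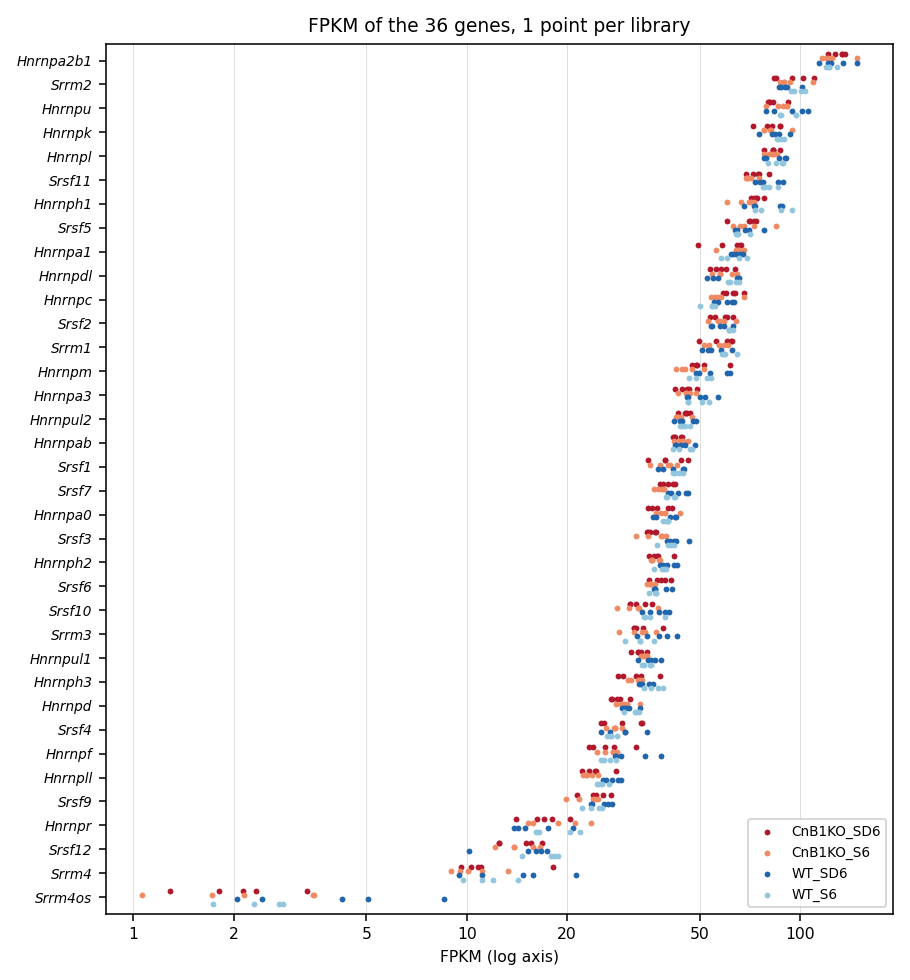
FPKM (log axis) of the 36 genes, ordered by mean level, with 1 point per library and the 4 groups in separate colours. Hnrnpa2b1 sits above 114 FPKM in every library, most genes lie between 20 and 100, and Srrm4 and Srrm4os are both the lowest and the most scattered.

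The knockout was compared with WT over both treatments, as the mean of the change after deprivation and the change after sleep. Of the 36 genes, 4 fell in CnB1KO and none rose: Hnrnpr, Hnrnpd, Srsf10 and Srsf3, each 1.1- to 1.12-fold. The 4 are 11.1% of the 36, whereas 1.21% of all 14443 genes fell and 3.09% changed in either direction (edgeR quasi-likelihood test, adjusted p under 0.05 over all genes). Since the families were picked with results known, these shares are a description. DESeq2 called the same 4 with Srsf7 and Hnrnpll, 6 in all, and limma voom called 3, without Srsf3 (adjusted p = 0.0502). A further 6 genes had an unadjusted p under 0.05, so that 10 of 36 (27.8%) did so, all with a negative log2 fold change, against 9.98% of all genes in that direction. They were Srsf7, Hnrnpll, Srsf11, Srsf1, Srrm4os and Hnrnpul1. Of the 36 estimates, 31 were negative, with a median log2 fold change of -0.05 against 0.01 over all genes.

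Hnrnpr encodes an hnRNP that binds messenger RNAs in neuronal axons. Its gene lies at chr4:136310942-136359447 on the plus strand (GRCm38, GENCODE M21 annotation). It had 159, 144, 140.1, 138 and 144 CPM in the CnB1KO_SD6 libraries, against 157, 172, 170.5, 181 and 156 in WT_SD6. After sleep it had 153, 148, 152, 157 and 135 CPM in CnB1KO_S6, against 160.4, 153, 166 and 171 in WT_S6. The groups overlapped in both pairs, through 1 CnB1KO_SD6 library and 2 CnB1KO_S6 libraries that reached into the WT values. The means were 145 ± 8.12 and 149 ± 8.32 CPM in CnB1KO, against 167 ± 10.7 and 163 ± 7.84 in WT (SD). The log2 fold change over both treatments was -0.17 (SE 0.039, 95% interval -0.25 to -0.09), 1.12-fold lower in CnB1KO, with an adjusted p of 0.0287 by edgeR.

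Hnrnpd encodes AUF proteins, which bind AU-rich elements and govern the decay of short-lived messenger RNAs. The gene lies at chr5:99955935-99978938 on the minus strand. Its CPM was 176, 169.6, 172, 167 and 183 in CnB1KO_SD6, against 194, 189, 197, 209.7 and 179.5 in WT_SD6. After sleep it was 184, 188, 205, 191 and 179.5 in CnB1KO_S6, against 208, 202, 199.7 and 214 in WT_S6. In the deprived pair the highest CnB1KO_SD6 library exceeded 1 WT_SD6 library, and in the sleep pair CnB1KO_S6 library 13, the shallowest, reached into the WT_S6 values. The log2 fold change was -0.14 (SE 0.033, 95% interval -0.21 to -0.07), 1.1-fold lower in CnB1KO (adjusted p = 0.0296, edgeR). Of the 4 genes, Hnrnpd was also the least variable within groups, with an SD of 0.06 on the log2 scale, at percentile 6.86 of all genes.

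The regions just upstream of Hnrnpr and Hnrnpd are shown because these genes had the smallest adjusted p-values of the 4. Calcineurin is known to act on transcription through NFAT, a factor whose DNA core is GGAAA, and a link between that motif and the changes was not tested. Each line gives the 250 bases before the RefSeq start (GRCm38.p6), 5′ to 3′ on the gene's own strand, chr4:136310692-136310941 on plus and chr5:99978939-99979188 on minus, with capitals for GGAAA and CCAAT in either orientation. For Hnrnpr, which has 2 starts in the table, the start nearer to the annotated gene start was used.
Hnrnpr: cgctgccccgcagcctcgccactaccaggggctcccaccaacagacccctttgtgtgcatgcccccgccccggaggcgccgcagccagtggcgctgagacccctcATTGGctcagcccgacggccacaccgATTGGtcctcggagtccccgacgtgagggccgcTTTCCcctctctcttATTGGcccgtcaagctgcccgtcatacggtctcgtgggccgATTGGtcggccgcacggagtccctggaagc
Hnrnpd: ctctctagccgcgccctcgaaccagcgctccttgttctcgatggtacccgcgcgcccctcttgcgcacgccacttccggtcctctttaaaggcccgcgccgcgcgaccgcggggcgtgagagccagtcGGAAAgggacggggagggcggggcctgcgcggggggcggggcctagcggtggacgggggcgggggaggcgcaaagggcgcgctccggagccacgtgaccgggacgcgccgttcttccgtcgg
The Hnrnpr window held 4 CCAAT boxes and 1 NFAT core, all of them reversed, at a GC content of 68.8%. The Hnrnpd window held 1 NFAT core and no CCAAT box at a GC content of 74.4%. The windows of the other 2 genes that fell differed again, with 3 NFAT cores and 1 CCAAT box for Srsf10, and 0 NFAT cores, 1 CCAAT box and 1 TATA box for Srsf3. In the windows printed, no matches of different motifs overlapped. Upstream windows were found for 33 of the 36 genes, all but Hnrnpll, Hnrnpul2 and Srrm4os. GGAAA occurred in 16 of these 33 (48.5%) and in 55.6% of the 32817 windows of the table, and CCAAT in 17 of 33 (51.5%) against 33.8%. The cAMP response element TGACGTCA was found in 0 of 33 against 1.55%, and the TATA box TATAAA in 3 of 33 (9.09%) against 12.4%. The median GC content was 63.6% in the 33 windows and 52.4% in all windows.

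Srsf10 encodes an atypical SR protein that represses splicing when it loses its phosphates, as after heat shock. It lies at chr4:135855747-135869908 on the plus strand. It had 94.98, 93.4, 91.9, 86.7 and 85.02 CPM in CnB1KO_SD6, against 91.9, 106, 105, 106 and 96.4 in WT_SD6. After sleep it had 85.7, 86.2, 83.5, 91.5 and 77.8 CPM in CnB1KO_S6, against 90.5, 89.3, 93.6 and 99.95 in WT_S6. In the sleep pair all but the highest CnB1KO_S6 library lay below every WT_S6 library, and in the deprived pair 3 CnB1KO_SD6 libraries exceeded the lowest WT_SD6 library, 1 of them only narrowly (91.91 against 91.88 CPM). The log2 fold change over both treatments was -0.15 (SE 0.038, 95% interval -0.23 to -0.07), 1.11-fold lower in CnB1KO, with an adjusted p of 0.0446 by edgeR.

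Srsf3 encodes a small SR protein that also couples splicing to RNA export. It lies at chr17:29032628-29043373 on the plus strand. Its CPM was 107, 102, 95.5, 99.99 and 99.8 in CnB1KO_SD6, against 105, 116, 122, 127 and 104 in WT_SD6. After sleep it was 104, 96.1, 108, 105 and 94.8 in CnB1KO_S6, against 107, 106, 112 and 119 in WT_S6. Both pairs overlapped, and the 2 lowest WT_SD6 libraries lay below the highest CnB1KO_SD6 library. The log2 fold change was -0.16 (SE 0.042, 95% interval -0.24 to -0.07), 1.11-fold lower in CnB1KO (adjusted p = 0.0493, edgeR). Just outside the threshold were Srsf7, an SR protein of RNA export, at -0.11 (adjusted p = 0.0567) and Hnrnpll, a splicing regulator known from T cells, at -0.14 (adjusted p = 0.06).

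**Figure D2:**
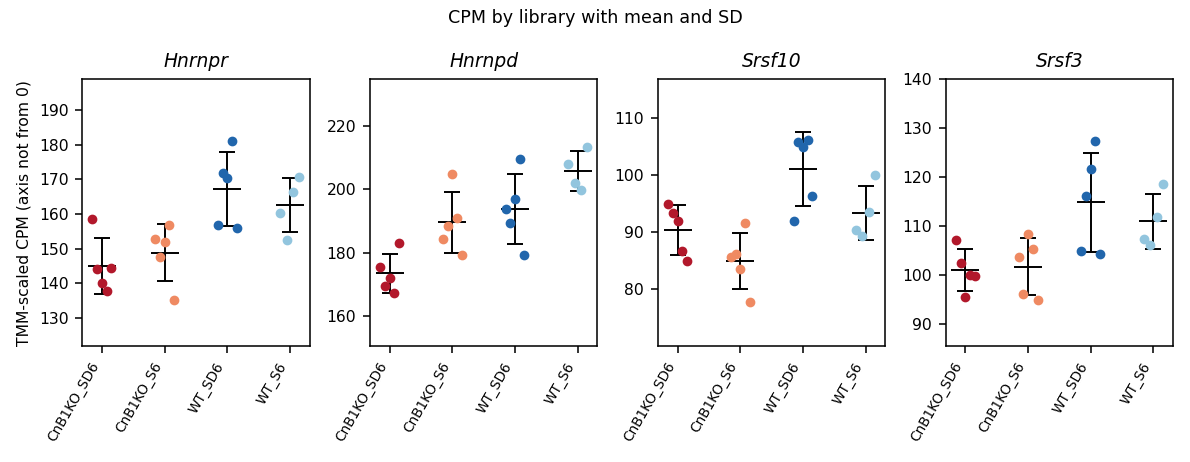
TMM-scaled CPM (axis not from 0) of Hnrnpr, Hnrnpd, Srsf10 and Srsf3, with 1 point per library, the group mean as a horizontal line and 1 SD as the error bar. For each gene the CnB1KO mean lies below the WT mean after sleep and after deprivation, with overlap between single libraries.

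The 4 calls depended on what else entered the fit. In bulk tissue fewer cells of a type and less RNA per cell cannot be told apart, and several cell type markers moved with genotype. The 8 endothelial markers summed to 491 to 641 CPM in CnB1KO_SD6 and 534 to 651 in CnB1KO_S6, against 393 to 515 in WT_SD6 and 418 to 483 in WT_S6, and 6 of the 8 rose; their part in the 4 changes was not tested. The 12 oligodendrocyte markers summed to 2120 to 2600 CPM in CnB1KO_SD6 and 2070 to 3200 in CnB1KO_S6, against 1950 to 2200 in WT_SD6 and 2110 to 2390 in WT_S6, and 3 of the 12 rose. The 10 microglial markers summed to 313 to 374 CPM in CnB1KO_SD6 and 331 to 360 in CnB1KO_S6, against 267 to 340 in WT_SD6 and 330 to 368 in WT_S6. In CnB1KO over both treatments 2 of the 10 rose, and all 10 estimates were positive with a median log2 fold change of 0.09. The 5 blood markers (median 0.25), 10 neuronal markers (0.10) and 8 noradrenergic markers (0.16) had positive estimates throughout, and 0 passed. All 7 granule cell markers had negative estimates, with a median log2 fold change of -0.87, and 0 of 7 passed. With the oligodendrocyte score (the mean log2 CPM of the markers) as a covariate, 0 of the 36 genes passed. Of all 14443 genes only 10 then passed, against 447 without the score. The log2 fold changes were -0.10 for Hnrnpr, -0.14 for Hnrnpd, -0.08 for Srsf10 and -0.11 for Srsf3. Their adjusted p-values by edgeR were 0.587 to 0.72 for all but Hnrnpd, at 0.339. With the granule cell score, again 0 of the 36 passed, while 227 of all genes did. The estimates were -0.13 for Hnrnpr, -0.14 for Hnrnpd, -0.11 for Srsf10 and -0.12 for Srsf3 (adjusted p = 0.0548, 0.056, 0.0739 and 0.104, edgeR). All 12 oligodendrocyte markers had positive estimates in CnB1KO and all 7 granule cell markers negative ones. Neither fit can therefore cleanly part its score from genotype. The part of these cell types in the 4 changes was not tested beyond that. Leaving out 1 library also ended the calls: 0 genes passed without WT_S6 library 4, WT_SD6 library 9, CnB1KO_S6 library 12, CnB1KO_S6 library 15 or CnB1KO_SD6 library 19, and 1 passed without WT_S6 library 3, WT_SD6 library 7 or CnB1KO_SD6 library 17. It was 2 genes without WT_S6 library 2, WT_SD6 library 8, CnB1KO_S6 library 11, CnB1KO_SD6 library 18 or CnB1KO_SD6 library 20, and 3 to 6 without any other library. By gene, Hnrnpd passed in 13 of these 19 fits, Hnrnpr in 12, and Srsf10 and Srsf3 in 5 each. Without CnB1KO_S6 library 13 and WT_SD6 library 8 together, 3 passed.

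In the FPKM tables the sign for Hnrnpr was the reverse. Its FPKM was 20.4, 18.03, 14.1, 17.01 and 16.3 in CnB1KO_SD6 and 21.1, 15.3, 23.6, 18.8 and 15.8 in CnB1KO_S6, against 14.9, 20.8, 17.5, 14.3 and 13.8 in WT_SD6 and 20.3, 16.1, 16.5 and 21.8 in WT_S6. The groups overlapped throughout, and the log2 fold change over both treatments was 0.05 on the log2(FPKM + 0.1) scale, against -0.17 from counts (adjusted p = 0.861, limma). For Hnrnpd, Srsf10 and Srsf3 the sign was the same as from counts, at -0.09, -0.17 and -0.18, with adjusted p-values of 0.26, 0.137 and 0.06. Exons of Hnrnpr share 715 of their 22199 bases with the transcript Gm27022 on the other strand, and those of Hnrnpd share 385 of 7354 with Gm17092. Counts from these parts are uncertain in libraries without strand information. Their part in the sign for Hnrnpr was not tested.

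Split by treatment, no gene passed in either genotype comparison, where few genes of the whole table did. After deprivation, 0 of 36 passed by edgeR while 0.132% of all genes did, and 8 of 36 (22.2%) had an unadjusted p under 0.05, all negative, against 7.17% of all genes. The smallest p-values were those of Hnrnpr, at a log2 fold change of -0.21 (SE 0.053, adjusted p = 0.133), and Hnrnpd, at -0.16 (SE 0.045, adjusted p = 0.157), both in CnB1KO_SD6 relative to WT_SD6. DESeq2 called Hnrnpr here and limma voom called 0, while without CnB1KO_SD6 library 16 edgeR called 2, Hnrnpr and Hnrnpll. After sleep, 0 of 36 passed while 0.0485% of all genes did, and 6 of 36 (16.7%) had an unadjusted p under 0.05, all negative, against 3.84% of all genes. Hnrnpd, at -0.12 (SE 0.048, adjusted p = 0.417), and Srsf10, at -0.13 (SE 0.056, adjusted p = 0.431), had the smallest p-values, and DESeq2 and limma voom called 0 there.

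Complete separation of groups was rare: of the 36 genes and 4 pairs of groups, it was seen for Srsf7 alone, and between CnB1KO_S6 and WT_S6 alone. It had 91.03, 91.5, 94.98, 92.1 and 87.2 CPM in CnB1KO_S6, against 98.5, 95.4, 95.01 and 102 in WT_S6, and the closest libraries were 94.98 CPM in CnB1KO_S6 and 95.01 CPM in WT_S6. That is 1 of 36 genes (2.78%) in a comparison where 4.32% of all genes did not overlap and 1.77% lay wholly lower. In the other pairs 0 of 36 did not overlap, while 2.05% of all genes did not between CnB1KO_SD6 and WT_SD6, 2.66% between CnB1KO_SD6 and CnB1KO_S6, and 5.21% between WT_SD6 and WT_S6.

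By role, the Srsf genes had a median log2 fold change of -0.09 in CnB1KO over both treatments, with 10 of 11 estimates negative and 2 genes past the test. The Hnrnp genes had a median of -0.04, with 17 of 20 negative and 2 past the test, and the Srrm genes a median of -0.04, with 4 of 5 negative and 0 past the test. Leaving aside Srrm4 and Srrm4os, the estimates ran from -0.17 for Hnrnpr to 0.06 for Srsf5. The 95% interval lay within 1.2-fold in either direction for 33 of the 36 genes. Abundant hnRNP genes such as Hnrnpa2b1, at 0.03 (95% interval -0.08 to 0.14), and Hnrnpa1, whose protein opposes Srsf1 at splice sites, at 0.00 (95% interval -0.11 to 0.10), thus had narrow intervals around 0.

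**Figure D3:**
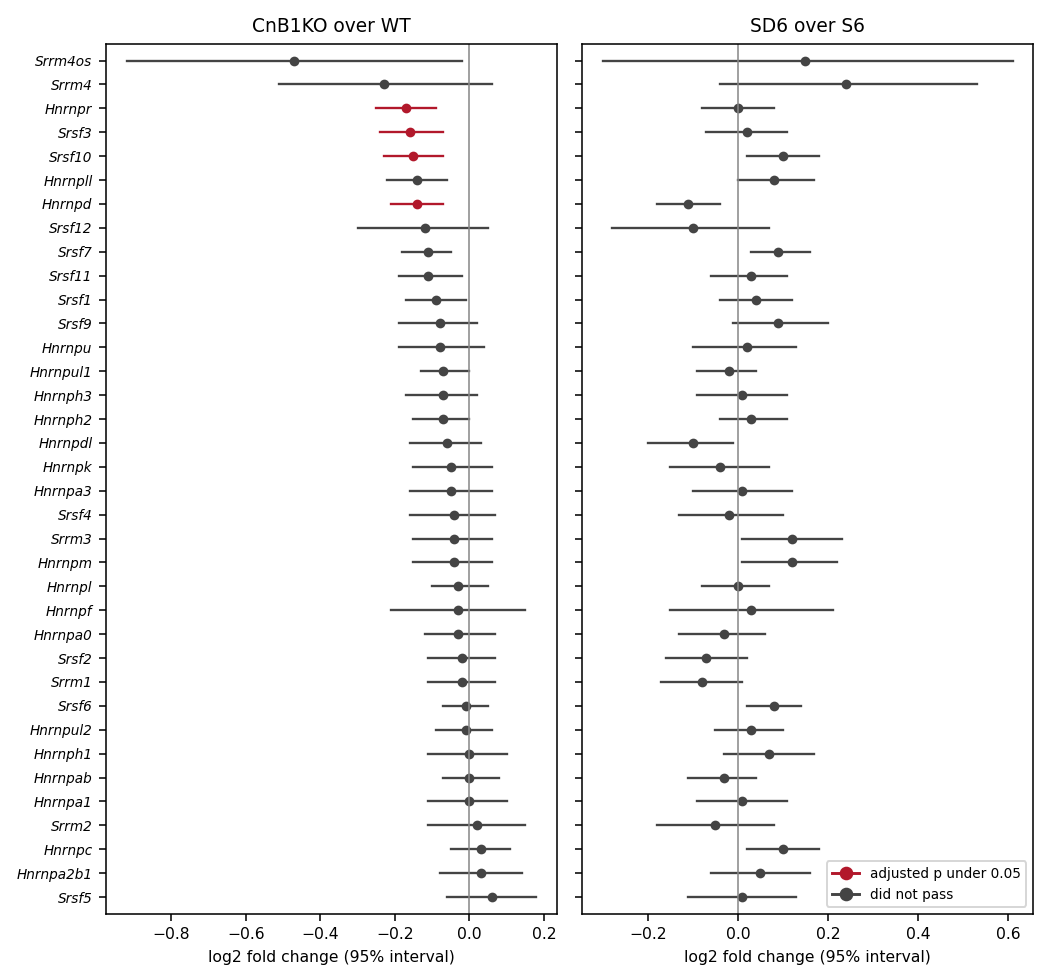
Log2 fold changes with 95% intervals for the 36 genes, on the left CnB1KO over WT as the mean of both treatments, on the right SD6 over S6 as the mean of both genotypes, with genes past an adjusted p of 0.05 in red. The 4 red genes lie between -0.14 and -0.17 on the left, none is red on the right, and Srrm4os has the widest interval in both panels.

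Sleep deprivation moved these genes little. In WT, 0 of 36 passed by edgeR while 1.14% of all genes did, and 1 of 36 had an unadjusted p under 0.05, against 11.6% of all genes. It was Srsf7, with 99.4, 105, 111, 113 and 97.99 CPM in WT_SD6 against 98.5, 95.4, 95.01 and 102 in WT_S6, at a log2 fold change of 0.11 (SE 0.045, 95% interval 0.01 to 0.20, adjusted p = 0.345). Srsf10 came next at 0.11 (SE 0.055, 95% interval 0.00 to 0.23, adjusted p = 0.449), and at 0.01 (adjusted p = 0.994) with the oligodendrocyte score as a covariate. That score was itself lower after deprivation, at 6.82 to 7.07 in WT_SD6 against 7.1 to 7.31 in WT_S6. All 12 of its markers had negative estimates there, so this fit cannot cleanly part the score from deprivation in WT. Both genes overlapped between WT_SD6 and WT_S6.

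In CnB1KO, 0 of 36 passed while 0.692% of all genes did, and 2 of 36 had an unadjusted p under 0.05, against 9.69%. Hnrnpd, listed above by library, had a log2 fold change of -0.13 in CnB1KO_SD6 relative to CnB1KO_S6 (SE 0.045, 95% interval -0.22 to -0.03, adjusted p = 0.29). Srsf6, an SR protein of exon definition, had 148, 137, 150, 144 and 149 CPM in CnB1KO_SD6 against 138, 137, 142, 131 and 134 in CnB1KO_S6. Its log2 fold change was 0.09 (SE 0.041, 95% interval 0.01 to 0.18, adjusted p = 0.447), with overlapping groups. DESeq2 and limma voom called 0 of 36 in WT and in CnB1KO.

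Over both genotypes, 0 of 36 passed, while 4.69% of all genes did, and 9 of 36 (25%) had an unadjusted p under 0.05, against 17.2% of all genes. Of the 9, Hnrnpc, Hnrnpll, Hnrnpm, Srrm3, Srsf6, Srsf7 and Srsf10 had positive estimates, and Hnrnpd and its relative Hnrnpdl negative ones. The nearest to the threshold was Hnrnpd at -0.11 (SE 0.033, adjusted p = 0.0704), and DESeq2 called it while limma voom called 0. Without WT_SD6 library 9 edgeR called Hnrnpd, without CnB1KO_S6 library 13 it called Hnrnpc, and with the granule cell score as a covariate it called Srrm4 and Srsf10. The median log2 fold change of the 36 genes was 0.02, with 24 estimates positive, and 33 of 36 intervals lay within 1.2-fold in either direction.

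The response to deprivation was not found to differ between the genotypes for any of the 36. The interaction, the CnB1KO response minus the WT response, passed for 0 of 36 genes and for 0 of all 14443 (0%) by edgeR, and DESeq2 and limma voom also called 0 of the 36. The unadjusted p was under 0.05 for 0 of 36, against 1.99% of all genes. The smallest p-values were those of Hnrnpf, a binder of G runs, at -0.30 (SE 0.173, 95% interval -0.66 to 0.06), and Srsf2, a component of speckles, at 0.12 (SE 0.088, 95% interval -0.07 to 0.30), both with an adjusted p of 1.0. Without CnB1KO_S6 library 13 and WT_SD6 library 8 the estimates were -0.18 for Hnrnpf and 0.20 for Srsf2. Hnrnpf had 15.04, 12.6, 13.8, 12.6 and 11.3 CPM in CnB1KO_SD6, 10.8, 15.5, 17.7, 13.4 and 14.3 in CnB1KO_S6, 14.3, 14.1, 16.5, 17.3 and 12.5 in WT_SD6 and 13.9, 12.3, 13.3 and 12.96 in WT_S6. Srsf2 had 80.1, 73.5, 79.3, 74.1 and 82.6 CPM in CnB1KO_SD6, 79.5, 73.05, 93.1, 76.2 and 72.7 in CnB1KO_S6, 72.98, 76.4, 80.01, 80.8 and 69.7 in WT_SD6 and 80.2, 85.5, 81.99 and 83.8 in WT_S6. For both genes all 4 groups overlapped, and exons of Srsf2 share 460 bases with Mettl23 and 288 with Mfsd11 on the other strand.

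Srrm4 and Srrm4os stood apart in how much they varied between libraries of a group, and were singled out after their values were seen. Srrm4 drives the neuronal microexon program, and Srrm4os is read from the other strand. Srrm4 lies at chr5:116439275-116591817 on the minus strand and Srrm4os at chr5:116438720-116465487 on the plus strand, and their exons share 68 bases. Most of Srrm4os thus lies within the span of Srrm4. In libraries without strand information its counts are uncertain, and the pair may not be separate measures. Within groups the SD on the log2 scale was 0.49 for Srrm4os, at percentile 96.4 of all genes, and 0.32 for Srrm4, at percentile 88, against a median of 0.10 over the 36 genes and 0.14 over all genes. Srrm4 had 135, 89.2, 72.8, 83.1 and 76.8 CPM in CnB1KO_SD6, 83.4, 79.3, 71.8, 103 and 72.4 in CnB1KO_S6, 90.3, 118, 163, 124 and 75.6 in WT_SD6 and 74.5, 89.7, 103 and 95.2 in WT_S6. Srrm4os had 13.2, 6.73, 4.63, 7.46 and 6.97 CPM in CnB1KO_SD6, 8.96, 7.21, 4.37, 12.7 and 8.11 in CnB1KO_S6, 8.86, 13.1, 20.6, 15.6 and 7.41 in WT_SD6 and 7.41, 9.41, 11.3 and 10.6 in WT_S6. In each group the library highest in Srrm4 was also highest in Srrm4os, and all groups overlapped.

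The 250 bases before the RefSeq start of Srrm4, chr5:116591818-116592067 on the minus strand (GRCm38.p6), are given for comparison with the 2 windows above, with capitals for GGAAA and CCAAT in either orientation.
Srrm4: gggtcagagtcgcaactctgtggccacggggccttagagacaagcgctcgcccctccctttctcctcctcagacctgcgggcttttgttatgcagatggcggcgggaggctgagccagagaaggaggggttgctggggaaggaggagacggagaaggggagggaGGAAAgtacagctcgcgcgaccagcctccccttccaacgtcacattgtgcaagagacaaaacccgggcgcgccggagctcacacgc
It held 1 NFAT core and none of the other motifs searched, at a GC content of 63.2%.

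The levels of Srrm4 and Srrm4os, whose counts may not be separate, moved with the granule cell markers. In a fit with the 4 groups and the granule cell score, an analysis added after the data were seen, 8 of 36 genes had a slope past the test, all positive, which is 22.2%, while 18.7% of all genes had a slope past the test and 11.5% a positive one. Srrm4 gained 0.192 on the log2 scale per unit of score (SE 0.029, adjusted p = 0.000115) and Srrm4os 0.281 (SE 0.056, adjusted p = 0.00172). Srsf10 followed at 0.044 (SE 0.011, adjusted p = 0.00949), then Srsf9, at 0.055, with Hnrnpm, Srrm3, Hnrnpll and Hnrnpr between 0.037 and 0.05. Exons of Hnrnpm share 1169 of their 7956 bases with March2 on the same strand, so counts from that part are uncertain. Of the genes that fell in CnB1KO, Srsf3 had a slope of 0.036 (adjusted p = 0.0805) and Hnrnpd 0.004 (adjusted p = 0.854). The score was 5.35 ± 1.75 in CnB1KO_SD6, 5.82 ± 1.21 in CnB1KO_S6, 6.48 ± 1.68 in WT_SD6 and 6.63 ± 0.96 in WT_S6 (SD). Without WT_SD6 library 10 and CnB1KO_SD6 library 20, which lay farthest from the median score, 5 genes passed, with slopes of 0.22 for Srrm4 and 0.363 for Srrm4os, and Srsf9, Hnrnpm and Srrm3 no longer did, although their slopes were no smaller, at 0.063 (SE 0.022), 0.061 (SE 0.022) and 0.059 (SE 0.022).

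**Figure D4:**
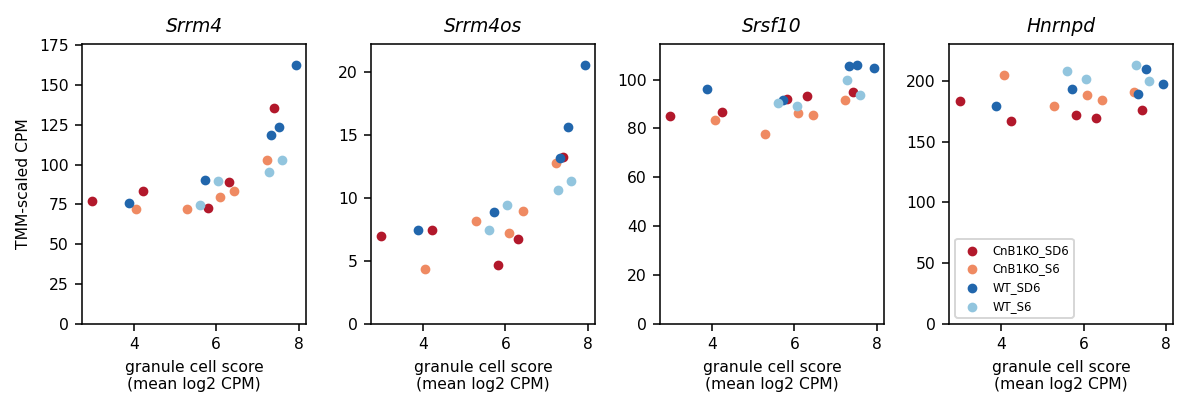
TMM-scaled CPM of Srrm4, Srrm4os, Srsf10 and Hnrnpd against the granule cell score (mean log2 CPM of 7 markers), with 1 point per library and the 4 groups in separate colours. Srrm4 and Srrm4os are highest in the libraries with scores above 7, Srsf10 shows a shallow gradient and Hnrnpd none.

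In either direction, the share of the 36 past the test was near that of all genes on the granule cell score (22.2% against 18.7%). It was below that of all genes on the oligodendrocyte and noradrenergic scores. Shares of all genes by direction are given for the granule cell score alone. The slope on the oligodendrocyte score passed for 0 of 36 genes by edgeR, against 1.65% of all genes. The slope on the score of 8 noradrenergic markers passed for 7 of 36 (19.4%), against 21.5% of all genes. It was -0.52 for Srrm4, -0.687 for Srrm4os and also negative for Hnrnph1, Hnrnpm, Hnrnpu and Srrm3, while Srsf12 alone had a positive slope past the test, at 0.297 (adjusted p = 0.0215). The noradrenergic and granule cell scores ran opposite in part. WT_SD6 library 8, lowest in the first (5.38), was highest in the second (7.93), while CnB1KO_S6 library 12, next lowest in the first (5.99), had 6.08. Slopes on these scores are therefore not separate results. Without WT_SD6 library 8 and CnB1KO_S6 library 12, Hnrnpm and Srrm4 were the 2 that passed, the slope of Srsf12 was 0.05 (adjusted p = 0.846), and the 6 negative slopes were larger in size. The estimates of the genotype comparison for the pair were -0.23 for Srrm4 (95% interval -0.51 to 0.06, adjusted p = 0.317) and -0.47 for Srrm4os (95% interval -0.92 to -0.02, adjusted p = 0.202).

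Counts of these genes also followed depth unequally. Within groups, a gene counted in proportion to depth has a slope of 1 when its log2 count is set against the log2 of the library total. CnB1KO_S6 library 13, with 3887298 counts, lay farthest from its group in depth and so weighs most on every slope. It also had the highest neuronal (8.47) and oligodendrocyte (7.61) marker scores of the 19 libraries. The slopes were not computed without it, and the part of its make-up in them was not tested. The median slope was 0.91 over the 36 genes and 1.15 over all genes, and 27 of 36 lay under 1, against 3968 of 14443. The 36 were densely covered, with a median of 156 counts per kilobase of exon against 61.2. Among genes of 100 to 200 counts per kilobase the median slope was 0.93 for 17 of the 36 and 1.03 for all, and between 200 and 400 it was 0.80 for 10 of the 36 and 0.81 for all.

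The slope was lowest for Srrm2 at 0.58, Srsf5 at 0.60, Hnrnpk at 0.64 and Hnrnpa2b1 at 0.65. It was highest for Srrm4os at 1.65, Srsf4 at 1.46 and Srsf9 at 1.33, and for the genes that fell it was 1.05 for Hnrnpr, 0.90 for Hnrnpd, 1.18 for Srsf10 and 0.96 for Srsf3. With the log2 library total as a covariate, all 36 estimates of CnB1KO over WT were negative, with a median of -0.09, and 6 genes passed: Hnrnpr, Hnrnpd, Srsf3, Srsf7, Srsf11 and Hnrnpk. Srsf10 did not, at -0.14 (adjusted p = 0.0568). CnB1KO_S6 library 13 weighs most on that covariate too. Exons of Srsf4 share 1532 bases with Gm12992 on the other strand, so its counts are uncertain.

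**Figure D5:**
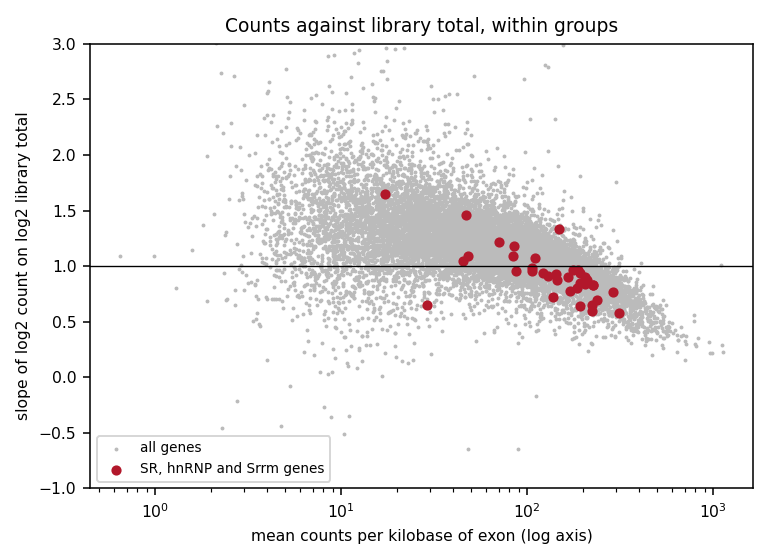
Slope of each gene's log2 count on log2 library size within groups against mean counts per kilobase of exon (log axis), with all genes in grey, the 36 genes in red and a line at 1, the slope of counting in proportion to depth; 29 genes fall outside the drawn range. Most red points lie below the line, among genes of like density.

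Other splicing genes were described by 5 lists. Of 9 SR protein kinases, the enzymes that charge SR proteins with phosphate, 0 passed in any of the 7 comparisons (edgeR). The nearest over both genotypes was Clk1, at 0.13 in SD6 relative to S6 (adjusted p = 0.0774), and in CnB1KO over both treatments Dyrk1a, at -0.04 (adjusted p = 0.398). Of 25 SR-related proteins, 2 rose in SD6 over both genotypes: Tra2a, which binds exonic enhancers, at 0.17 (adjusted p = 0.0159), and Srek1, a regulator related to SR proteins, at 0.11 (adjusted p = 0.0298). With FPKM, Tra2a passed and Srek1 did not (adjusted p = 0.0156 and 0.398, limma). In CnB1KO, 2 of the 25 fell: Bclaf1 at -0.16 (adjusted p = 0.0235) and Tra2b, the paralog of Tra2a, at -0.14 (adjusted p = 0.0423). The list's median was -0.06, with 21 of 25 estimates negative.

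Of 15 hnRNP-like proteins under other symbols, the cold-inducible Cirbp alone passed. It had 50.7, 42.7, 49.1, 47.6 and 51.4 CPM in CnB1KO_SD6 against 59.5, 65.8, 75.9, 71.2 and 59.7 in CnB1KO_S6, with no overlap. It had 55.2, 52.3, 56.9, 59.6 and 55.7 CPM in WT_SD6 against 77.4, 79.2, 76.8 and 85.2 in WT_S6, again with no overlap. The log2 fold changes in SD6 were -0.46 in CnB1KO (adjusted p = 0.00163, edgeR) and -0.51 in WT (adjusted p = 0.000867), and Cirbp was also lower in CnB1KO over both treatments, at -0.24 (adjusted p = 0.0159).

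Of 53 measured core spliceosome genes, 2 fell in CnB1KO over both treatments: Snrpd3, a subunit of the Sm ring, at -0.24 (adjusted p = 0.00476), and Prpf4, of the tri-snRNP, at -0.24 (adjusted p = 0.0453). The median was -0.03, with 38 of 53 negative. In SD6 over both genotypes 1 of 53 rose, Prpf18, a factor of the later splicing step, at 0.10 (adjusted p = 0.0469), a call that DESeq2 did not make (adjusted p = 0.0903). With FPKM it did not pass either (adjusted p = 0.224, limma). Of 23 measured tissue-specific regulators, Khdrbs3, a neuronal KH-domain protein, rose in CnB1KO at 0.21 (adjusted p = 0.0309), and 0 passed in SD6, where Ptbp2, a repressor of neuronal exons, was nearest at -0.10 (adjusted p = 0.0605). In the genotype comparisons after sleep and after deprivation and in the interaction, 0 genes passed in any of the 5 lists. Over all 14443 genes, 272 rose and 175 fell in CnB1KO over both treatments (3.09% called). In SD6 over both genotypes 371 rose and 307 fell (4.69% called). The lists were described by counts and medians, without a test. With the oligodendrocyte score as a covariate, none of the 6 genotype calls in these lists passed, the smallest adjusted p being 0.0938 for Snrpd3. Only 10 of all genes were called in CnB1KO in that fit. Of the deprivation calls only that of Cirbp passed. Of the 12 markers in that score, 3 themselves fell in SD6 over both genotypes, so the score is not free of deprivation. All 12 had positive estimates in CnB1KO, so it is not free of genotype either. With the granule cell score, Snrpd3 and Cirbp still passed in the genotype comparison, and Bclaf1 (adjusted p = 0.0501), Khdrbs3 (0.0521), Tra2b (0.0882) and Prpf4 (0.091) did not. On leaving out each of the 19 libraries in turn, Snrpd3 passed in 19 fits, Cirbp in 18, Bclaf1 in 17, Khdrbs3 in 11, Tra2b in 5 and Prpf4 in 4. Of the deprivation calls, those of Tra2a and Cirbp passed in 19 fits, that of Srek1 in 11 and that of Prpf18 in 3.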

How the data were processed

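RNA was measured in 19 libraries of mouse locus coeruleus in 4 groups. The authors deposited read counts per gene for 14443 symbols and, in 4 tables by group, FPKM for more symbols. The submitters' processing notes list StringTie 2.2.1, HTSeq 2.0.4, SAMtools 1.6, Picard 2.18.29, Trim Galore 0.6.10, FastQC 0.12.1 and GRCm38, with no role or order. No source used here names the aligner, the annotation or what was done about duplicates. The 19 deposited columns of TPM were not used. Per the labels' protocols, RNA was selected for poly(A), and the named kits do not mark strand. Column names gave each library's group and a running number, which names it here.

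After TMM scaling, edgeR 4.0.16 (R 4.3.3) fitted the counts of all 19 libraries by group, with 15 residual degrees of freedom and a common dispersion of 0.0121. Its quasi-likelihood test was used 2-sided, with Benjamini-Hochberg adjustment over all 14443 genes and a call at adjusted p under 0.05. The 7 comparisons were 4 between pairs of groups, the interaction, and the averages over genotype and over treatment. They share libraries and 1 estimate of the spread. CPM are TMM-scaled, with mean and SD by group. FPKM were tested with limma 3.58.1 as log2(FPKM + 0.1), a scale that understates changes of low genes, and DESeq2 1.42.0, limma voom, other scalings, filters, covariates and leaving out each library were alternatives. The code was tested on simulated data.

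The 36 genes and the lists were chosen with earlier results of these data known. Library values were given for those of the 36 genes called in any comparison, and for those with the 2 smallest p-values in each pair and in the interaction. Srrm4 and Srrm4os were added after their values were seen. Of each list up to 3 called genes, or else the gene with the smallest p, were named, and Cirbp alone of these was given by library. Scores are mean log2 CPM of a cell type's markers. Positions come from GENCODE M21 and upstream sequences from RefSeq, GRCm38.p6. A block on replicate numbers could not be run.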

Additional observations from a re-analysis of the deposited data

Results flagged for a closer look

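Srrm4 had 135 CPM in CnB1KO_SD6 library 16, while the other 4 CnB1KO_SD6 libraries lay between 72.8 and 89.2 CPM. The gap to the next library was 0.737 of the range of the group, above Dixon's 95% critical value of 0.71 for 5 samples. The test was made for 10 genes in 4 groups, 40 in all, and found this 1, while chance alone marks about 1 in 20. Library 16 also had the highest granule cell score of its group, 7.41, with the other 4 between 2.99 and 6.31. Its part in the Srrm4 value was not tested.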

How the results depend on the processing

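No paired analysis was possible because the columns carry a running library number in place of the replicate numbers of the labels. For CnB1KO over WT across both treatments, 4 of 36 genes passed; the count was 0 with the oligodendrocyte score, with the granule cell score, and with FPKM at a pseudocount of 0.1 or 1, and 0 to 6 on leaving out each library. After deprivation (CnB1KO_SD6 over WT_SD6) it was 0, but 1 with DESeq2 (Hnrnpr), 1 with the library total as a covariate (Hnrnpd) and 0 to 2 on leaving out each library. For SD6 over S6 across both genotypes it was 0, but 1 with upper quartile scaling and 1 with DESeq2 (Hnrnpd both times), 4 with the library total (Hnrnpc, Hnrnpd, Srsf6 and Srsf7), 2 with the granule cell score (Srrm4 and Srsf10) and 0 to 1 on leaving out each library. In the other 4 comparisons it was 0 under every alternative run. The sign of Hnrnpr reversed with FPKM: the log2 change was 0.01 at either pseudocount after sleep, 0.08 at either after deprivation, and 0.05 (pseudocount 0.1) and 0.04 (pseudocount 1) across both; the cause was not tested.

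Over all genes, the number called in CnB1KO over WT was 447, and 694 with DESeq2, 10 with the oligodendrocyte score and 76 to 1088 on leaving out each library, so which of the 36 genes pass depends on this setting. After deprivation it was 19, and 4 to 220 over the alternatives. After sleep it was 7, and 3 to 19. For deprivation it was 165 in WT, and 35 to 401, 100 in CnB1KO, and 54 to 160, and 678 across both, and 346 to 1161. Scalings moved the median change of all genes by at most 0.01. The smallest change that these 19 libraries can show was not computed, and it differs by gene and comparison. Over both treatments Hnrnpd passed at 1.1-fold, while after deprivation Hnrnpr did not at 1.15-fold (adjusted p = 0.0296 and 0.133, edgeR).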

Other observations

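4 symbols of these families appear in the FPKM tables alone, without counts. Srrm3os, an RNA on the other strand beside Srrm3, had 0.213 to 1.14 FPKM over the 19 libraries (median 0.568). The pseudogene Srsf3-ps had 5.58 to 9.44 FPKM (median 7.29), against 32.3 to 46.4 for Srsf3, so reads of a near copy may be shared between them. Hnrnpa1l2-ps2 had 2.54 to 4.13 FPKM, and Hnrnpa1l2-ps was listed at 0 in 12 of 19 libraries and at most at 0.268 FPKM.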
